A study of Caenorhabditis elegans with 12 samples.

Results

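The loci mir-253, mir-257, mir-260 and mir-262 of Caenorhabditis elegans are 4 of the 258 microRNA-annotated loci among 42048 genes in the deposited tables. They were chosen by name, after earlier results of these data were known, to compare their levels in RNA with and without 5′ polyphosphatase treatment and their changes in 2 mutants. Those levels and changes are therefore given as a description: calls from the fit over all genes are counted beside the share of all genes called, and no p-value is given for the loci. 3 of the loci gave more reads after polyphosphatase treatment, the reverse of most microRNA loci. In the wild type mir-262 held 490 against 5.95 fpm (fragments scaled to the total of a library, the CPM unit). mir-257 held 72.0 against 0.447 fpm and mir-260 held 131 against 31.5 fpm. mir-253 gave fewer, 101 against 301 fpm, as most microRNA loci did. The results for mir-260 and mir-253 depend on the scaling. With libraries centred on the median gene, the log2 difference of mir-260 in the wild type was -2.46. With libraries centred on microRNAs, that of mir-253 was -0.04. In the treated RNA mir-262 was 5.30-fold lower in rde-11 than in the wild type, mir-257 was 5.57-fold lower in meg-3 meg-4, and mir-253 was 2.04-fold higher in rde-11.

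The libraries were small RNA libraries of whole young-mother worms, grown at 20 °C from a starvation-synchronized population on HT115 bacteria that make double-stranded RNA of 400 nt against pos-1. All strains were fed in this way, the wild type included, and the libraries used here hold no unfed control. Next to N2, the laboratory wild type, there was a strain with 2 mutated genes, meg-3(ax3055) meg-4(ax3052), and a strain with 1, rde-11(hj37). RNA of each strain was either treated with 5′ polyphosphatase or left untreated before adapters were added, which gave 6 groups of 2 libraries, 12 in all. Nothing in the labels says that replicates came from separate cultures, so the errors measure only the spread between these libraries, which may be technical.

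A microRNA is cut from a hairpin precursor by Dicer, carries a 5′ monophosphate and guides an Argonaute protein of the ALG family to messenger RNAs. The 22G RNAs of nematodes are made differently: an RNA-dependent RNA polymerase copies a target transcript, the product keeps a 5′ triphosphate, and worm-specific WAGO Argonautes or CSR-1 bind it. Adapters join only to a 5′ monophosphate. Libraries of untreated RNA therefore hold mostly microRNAs and piRNAs, and polyphosphatase brings 22G RNAs in as well. MEG-3 and MEG-4 are disordered proteins that help to form P granules, where germline RNA condenses. RDE-11, which has a zinc finger, takes part in RNA interference, where it is required for making secondary small RNAs.

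Libraries held 3884534 to 5278777 reads assigned to genes, and 1 read was worth 0.189 to 0.257 fpm. microRNA loci took 19.4% ± 1.76 (SD, n = 2) of the treated N2 libraries and 63.4% ± 1.77 (SD, n = 2) of the untreated ones, and fpm values of one treatment are relative to that make-up. Small RNA reads of meg-4 numbered 356 and 299 in the treated N2 libraries and 0 and 2 in the treated meg-3 meg-4 libraries, which fits that label. The rde-11 gene itself held 633 fpm in treated N2 and 751 fpm in treated rde-11, so its small RNAs do not check the label rde-11(hj37). In treated meg-3 meg-4 RNA that gene stood at 4359 fpm, a limma log2 change of 2.78 ± 0.08 (SE, adjusted p = 1.56e-05, n = 2 against 2). Because whole worms were sequenced, fewer cells of a type and less RNA per cell cannot be told apart.

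The 4 loci lie in different surroundings, on chromosome II for mir-260 and on chromosome V for the other 3. mir-253 lies in an intron of the protein-coding gene F44E7.5, on its strand, and wholly inside the noncoding RNA gene F44E7.15 on the opposite strand. Its values equalled those of F44E7.15 in all 12 libraries, so the reads of these genes cannot be told apart and every value of mir-253 belongs to both. mir-257 overlaps no annotated gene, and its nearest neighbour in the tables is the noncoding RNA gene Y102A5D.22 on the opposite strand. mir-260 lies inside the pseudogene F39E9.7 on the opposite strand and overlaps an exon of it. On its own strand mir-260 overlaps the short noncoding RNA genes F39E9.21 and F39E9.25. mir-262 overlaps the noncoding RNA gene ZK384.7 on the opposite strand and lies between scl-20 and clec-250. Of the overlapping genes, F39E9.7, F39E9.25 and ZK384.7 had no values under their identifiers and could not be tested. The strand from which the reads of a locus came is not given by the values used.

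Nearly all reads of mir-262 came from treated RNA. Treated N2 libraries held 484 and 496 fpm, treated meg-3 meg-4 libraries 386 and 331 fpm, and treated rde-11 libraries 90.6 and 94.2 fpm. Untreated RNA held 4.60 and 7.31 fpm in N2, 4.18 and 5.59 fpm in meg-3 meg-4, and 2.15 and 2.57 fpm in rde-11. Every treated library thus stood above every untreated one, and within the treated RNA the 3 strains did not overlap. Here and below, a lack of overlap between pairs carries little weight, since a permutation test of 2 against 2 libraries gives no p below 0.333. The share of all genes without overlap was not counted. The treated level was 82.3-fold the untreated one in N2 (95% counting interval 63.0 to 110), 39.1-fold in rde-11 (25.4 to 64.9) and 73.4-fold in meg-3 meg-4 (55.1 to 99.6). The untreated values rest on 53 reads in N2, 20 in rde-11 and 48 in meg-3 meg-4, and these intervals cover counting error only.

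For mir-257 the untreated libraries were almost empty. Treated RNA held 71.5 and 72.6 fpm in N2, 12.05 and 13.8 fpm in meg-3 meg-4, and 75.5 and 69.1 fpm in rde-11. Untreated RNA held 2 and 2 reads in N2, 0 and 0 reads in meg-3 meg-4, and 0 and 4 reads in rde-11. The treated N2 and rde-11 libraries overlapped, and both treated meg-3 meg-4 libraries lay far below them. The treated level was 161-fold the untreated one in N2 (counting interval 62.6 to 593) and 140-fold in rde-11 (60.0 to 568). In meg-3 meg-4 it was at least 21.2-fold higher, taken against a floor of 3 reads per untreated library.

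mir-260 had reads in both kinds of RNA. Its treated level was 136 and 126 fpm in N2, 147 and 137 fpm in meg-3 meg-4, and 87.1 and 89.2 fpm in rde-11. Its untreated level was 28.3 and 34.7 fpm in N2, 20.1 and 20.5 fpm in meg-3 meg-4, and 31.0 and 28.6 fpm in rde-11. The treated libraries again stood above all untreated ones, with the rde-11 pair lowest among the treated and the meg-3 meg-4 pair lowest among the untreated. The treated level was 4.16-fold the untreated one in N2 (counting interval 3.67 to 4.77), 2.96-fold in rde-11 (2.56 to 3.40) and 6.99-fold in meg-3 meg-4 (6.02 to 8.14).

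mir-253 behaved in the opposite sense. Treated RNA held 107 and 94.8 fpm in N2, 116 and 105 fpm in meg-3 meg-4, and 205.4 and 205.4 fpm in rde-11. Untreated RNA held 299.6 and 302 fpm in N2, 323 and 332 fpm in meg-3 meg-4, and 691 and 656 fpm in rde-11. All untreated libraries lay above all treated ones, and in both kinds of RNA the rde-11 libraries were the highest. The untreated level was 2.98-fold the treated one in N2, 3.28-fold in rde-11 and 2.96-fold in meg-3 meg-4.

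**Figure D1:**
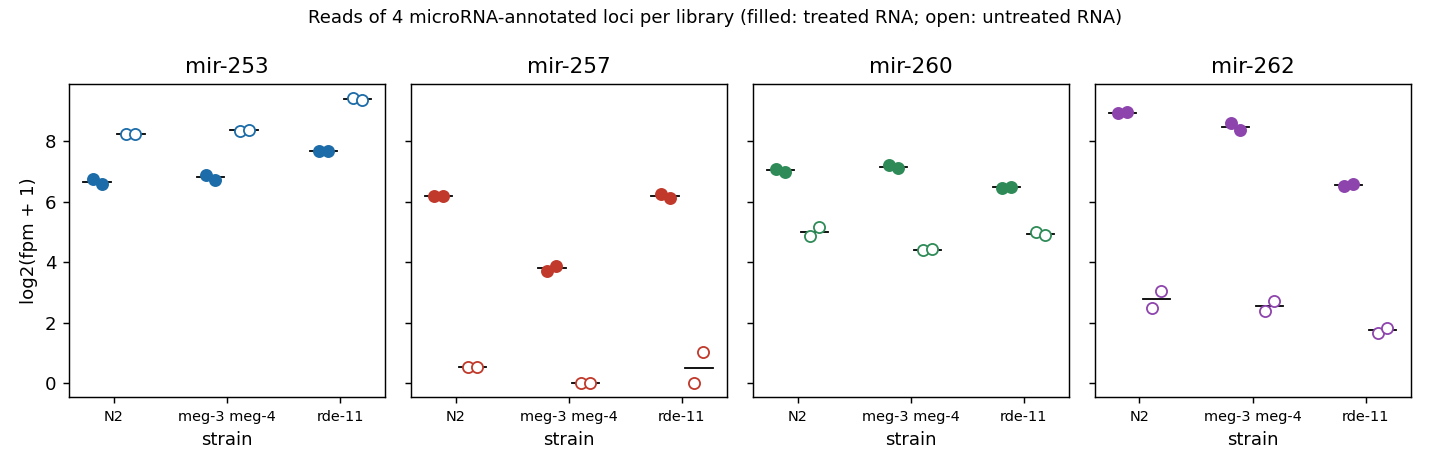
Level of each locus on the log2(fpm + 1) scale (vertical axis) in every library, by strain (horizontal axis), with filled points for treated RNA, open points for untreated RNA and a bar at the mean of each pair. mir-257, mir-260 and mir-262 lie higher in treated RNA in all 3 strains, and mir-253 lies higher in untreated RNA.

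As shares of all microRNA reads, which leave out the other classes of small RNA, mir-260 and mir-262 were again higher in treated N2 RNA, but mir-253 was not lower in it. mir-253 made up 0.0520% ± 0.000266 (SD, n = 2) of the microRNA reads in treated N2 and 0.0475% ± 0.00163 in untreated N2. mir-262 made up 0.254% ± 0.0272 of them in treated N2 and 0.000943% ± 0.000328 in untreated N2. mir-260 stood at 0.0676% ± 0.00228 and 0.00498% ± 0.000856 in the same groups.

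Set against other classes of small RNA in N2, the 4 loci fell on both sides of the range. On the log2(fpm + 1) scale, treated minus untreated N2 RNA gave 6.17 ± 0.24 (SE, n = 2 against 2) for mir-262, 5.66 ± 0.19 for mir-257, 2.03 ± 0.19 for mir-260 and -1.57 ± 0.16 for mir-253. The median over 168 microRNA loci tested was -1.59, over 5637 piRNA loci -1.28 and over 10137 protein-coding genes 3.33. mir-262, mir-257 and mir-260 took places 1, 2 and 7 from the top among the microRNA loci on this scale, and mir-253 took place 78. Of the protein-coding genes, 94.3% lay below mir-262, 91.5% below mir-257, 25.1% below mir-260 and 1.85% below mir-253. mir-260 thus lay between the medians of the microRNA loci and of the protein-coding genes.

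All 4 loci were called in each of the 3 strains, which the choice of the loci used and from which nothing is read. The call, in limma with Benjamini-Hochberg adjustment at an adjusted p under 0.05, took in 92.3% of all genes tested in N2, 93.9% in rde-11 and 89.6% in meg-3 meg-4. With each library centred on its microRNAs at 50 fpm or more, the difference of mir-253 between treated and untreated RNA was -0.04 in N2, 0.08 in rde-11 and 0.01 in meg-3 meg-4. Centred on the median gene at 50 fpm or more, that of mir-260 turned to -2.46 in N2, -2.79 in rde-11 and -1.60 in meg-3 meg-4. The same centring put mir-257 at -0.55 in meg-3 meg-4. Centring shifts all 4 loci alike, but the sign of mir-260 depends on it. The order of mir-262 and mir-257 in N2 depends on the pseudocount: at 0.5 fpm their differences were 6.28 and 6.26, and by the ratio of fpm mir-257 was the higher.

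**Figure D2:**
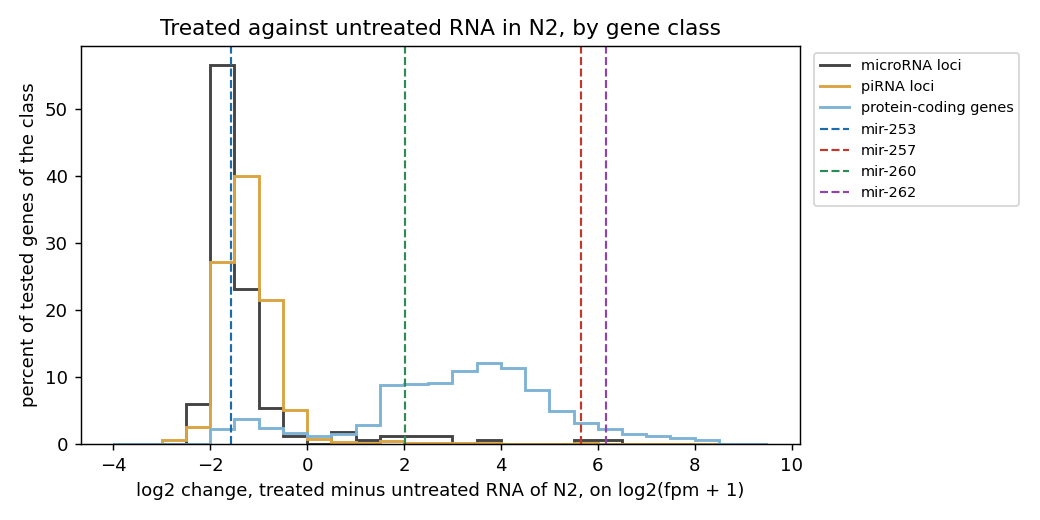
Distribution of the log2 change between treated and untreated N2 RNA (horizontal axis) over microRNA loci, piRNA loci and protein-coding genes, as the percent of the tested genes of each class (vertical axis), with dashed lines at the 4 loci. The line of mir-253 stands in the peak of the microRNA loci, and those of mir-257 and mir-262 stand in the upper part of the protein-coding genes.

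Typical microRNAs, a list of 19 that holds lin-4, let-7, mir-35, mir-71 and others with known roles in developmental timing, embryogenesis or lifespan, were all called lower in the treated RNA of each strain. In N2, 151 of the 168 microRNA loci and 5964 of the 16869 genes tested were called lower. The median log2 difference of the typical microRNAs in N2 was -1.69, with a range from -1.97 to -1.48, against 1.86 for all genes tested. The value of mir-253 in N2 lay inside that range, and those of the other 3 loci lay outside it.

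The loci share their block of names with microRNAs numbered from mir-250 to mir-273, of which 22 are in the tables and 18 are not among the 4. Of these 18, 9 had 0 reads in all 12 libraries and 3 had 1 to 3 reads in all. The remaining 6, mir-250, mir-251, mir-252, mir-254, mir-255 and mir-259, held 268 to 61571 reads, and in N2 they were lower in treated RNA by log2 differences between -2.07 and -1.27. Within this block of numbers, mir-257, mir-260 and mir-262 were the only tested loci with a difference above 0.

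Other microRNA loci shared the excess in treated RNA. In each strain 13 microRNA loci had a log2 difference above 0, of which 3 were mir-257, mir-260 and mir-262. The other 10 in N2 reached at most 3.64, at mir-8196.2 (46.1 against 2.79 fpm), followed by mir-8211 at 2.88, mir-354 at 2.84 and C40A11.10 at 2.37. In treated N2 mir-354 held 16.2 fpm, mir-8211 10.9 fpm and C40A11.10 9.75 fpm. Among the 10, mir-5592.1 and mir-5592.2 held equal values and cannot be told apart.

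In rde-11, 3 of the 4 loci were called against N2 in the treated RNA, where 10.8% of all genes tested were called. Here and below, such calls were known when the loci were chosen, so nothing is read from their number. mir-262 went from 490 ± 8.03 to 92.4 ± 2.55 fpm (SD, n = 2 each), a log2 change of -2.39 ± 0.12 (SE), and mir-260 from 131 ± 7.47 to 88.1 ± 1.49 fpm, a change of -0.56 ± 0.14. mir-253 went from 101 ± 8.64 to 205 ± 0.0400 fpm, a change of 1.02 ± 0.13. mir-257 held 72.0 ± 0.733 fpm in N2 and 72.3 ± 4.54 fpm in rde-11, with overlapping libraries and a change of 0.00 ± 0.15. By size of change, mir-262 was place 1 and mir-253 place 2 of 157 microRNA loci tested. The call of mir-260 was lost with no filter on low values, with microRNAs centred (-0.49), without N2 replicate 1 (-0.51) and without rde-11 replicate 1 (-0.55) or 2 (-0.58).

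Of the typical microRNAs, 0 of 19 were called higher and 2 lower in treated rde-11 RNA, with a median of -0.08 and a range from -0.44 to 0.24, beside 0.11 for all genes tested. Genes at 50 fpm or more had a median of 0.23. Relative to it, the change of mir-253 is smaller and those of mir-260 and mir-262 are larger in size.

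The untreated rde-11 libraries showed the same difference at mir-253. It went from 301 ± 1.93 fpm in N2 to 674 ± 25.01 fpm, a log2 change of 1.16 ± 0.16 (SE), place 1 by size of 167 microRNA loci tested. It was the 1 locus called of 3 tested, beside 0.593% of all genes. Without N2 replicate 1 or 2, its change was 1.15 or 1.17, the call was lost, and no more than 1 gene was called at all. mir-262 held 5.95 ± 1.91 fpm in N2 and 2.36 ± 0.300 fpm in rde-11, a change of -1.02 ± 0.36 with no overlap between the pairs and no call. mir-260 held 31.5 ± 4.55 and 29.8 ± 1.68 fpm, with overlap and a change of -0.07 ± 0.24. mir-257 was too low in untreated RNA for a comparison.

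In meg-3 meg-4 the locus that stood apart was another one. In the treated RNA mir-257 went from 72.0 ± 0.733 fpm in N2 to 12.9 ± 1.26 fpm, a log2 change of -2.39 ± 0.22 (SE), place 1 by size of 163 microRNA loci tested. It was the 1 locus called of 4, beside 8.27% of all genes tested. Of the 163 microRNA loci, 7 were called higher and 2, mir-257 included, lower. Among the other microRNA loci with the largest excess in treated N2 RNA, mir-8196.2 changed by -1.07 ± 0.24 and mir-8211 by -0.94 ± 0.25. The change of mir-354 was -0.52 ± 0.28 and that of C40A11.10 was 0.18 ± 0.31. mir-262 held 358 ± 39.5 fpm, a change of -0.45 ± 0.14 whose pairs did not overlap and which was not called. It was called without meg-3 meg-4 replicate 1 (-0.57) and in the fit with the replicate number as a block. mir-260 held 142 ± 6.62 fpm, a change of 0.12 ± 0.17, and mir-253 held 111 ± 8.01 fpm, a change of 0.13 ± 0.19 with overlapping libraries.

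Of the typical microRNAs, 5 were called higher and 0 lower in treated meg-3 meg-4 RNA, with a median of 0.21 and a range from -0.25 to 0.62. The median of all genes tested was -0.13. The small changes of mir-260 and mir-253 lay inside that range, and those of mir-257 and mir-262 lay below it.

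In untreated meg-3 meg-4 RNA, 0 of 3 loci tested were called by limma, beside 0.238% of all genes. At an unadjusted p under 0.05 limma gave 1 of 3, beside 1074 of the 10902 genes tested. Both edgeR and DESeq2 on recovered reads called 0 of the loci. mir-260 held 20.3 ± 0.269 fpm against 31.5 ± 4.55 fpm in N2, a change of -0.60 ± 0.23 whose pairs did not overlap. With microRNAs centred it was -0.74 and called. mir-253 held 328 ± 6.25 fpm, a change of 0.12 ± 0.14, and mir-262 held 4.89 ± 0.995 fpm, a change of -0.22 ± 0.33 with overlapping libraries.

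**Figure D3:**
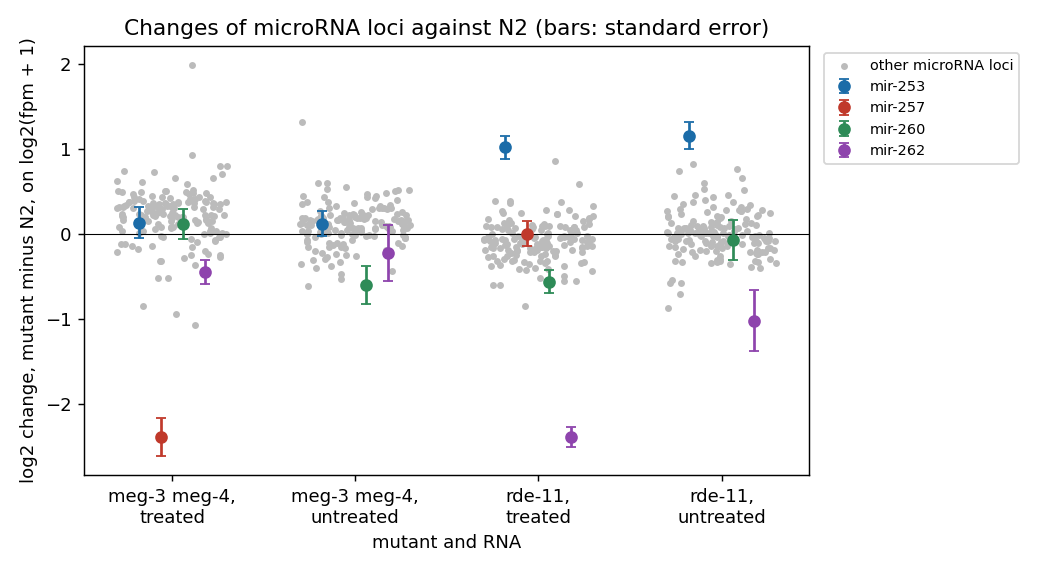
Log2 change of each microRNA locus against N2 on the log2(fpm + 1) scale (vertical axis) for both mutants and both kinds of RNA (horizontal axis), with the 4 loci in colour, their standard errors as bars and the other loci in grey. mir-257 stands lowest in treated meg-3 meg-4 RNA at -2.39, and in treated rde-11 RNA mir-262 stands lowest at -2.39 and mir-253 highest at 1.02.

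The order of the 6 groups also set the loci apart. mir-253 ran from untreated rde-11 at 674 fpm through the untreated RNA of the other strains to treated rde-11 at 205 fpm, and its 2 lowest groups, treated meg-3 meg-4 and treated N2, overlapped. mir-262 ran from treated N2 at 490 fpm to untreated rde-11 at 2.36 fpm, and of its neighbouring groups only untreated N2 and untreated meg-3 meg-4 overlapped. mir-260 was highest in treated meg-3 meg-4 at 142 fpm and lowest in untreated meg-3 meg-4 at 20.3 fpm. For mir-257 the treated rde-11 and treated N2 libraries overlapped at the top, and treated meg-3 meg-4 came next at 12.9 fpm.

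The mutants share the N2 libraries of each treatment, so their changes are not independent. The authors' deposited table gave log2 changes of -2.27 for mir-257 and -0.24 for mir-262 in treated meg-3 meg-4 RNA. For treated rde-11 RNA the authors' deposited table gave -2.50 for mir-262, -0.67 for mir-260, -0.09 for mir-257 and 0.93 for mir-253. DESeq2 on recovered reads gave the same log2 changes after rounding. The deposited values come from the same libraries and are no independent check.

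Genes next to the loci were not used to choose them and were tested. F44E7.5, the host gene of mir-253, held 25.8 fpm in treated N2 and 43.5 fpm in treated rde-11. Its limma log2 change was 0.72 ± 0.19 (SE, adjusted p = 0.0280, n = 2 against 2). That call was lost with no filter on low values, with the median gene centred (0.50), in DESeq2 (0.65) and without rde-11 replicate 1 (0.53). In treated meg-3 meg-4 the gene held 19.5 fpm, a limma change of -0.39 ± 0.23 (adjusted p = 0.455). Unlike mir-253, F44E7.5 was higher in treated than in untreated N2 RNA, by 3.91 ± 0.38 (limma adjusted p = 0.000229). That difference turned to -0.57 with the median gene centred. In this comparison 92.3% of all genes tested were called, so a call there sets neither this gene nor the neighbours below apart.

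Y102A5D.22, beside mir-257, held 53.1 fpm in treated N2, 39.3 fpm in treated meg-3 meg-4 and 51.9 fpm in treated rde-11. Its limma log2 change in meg-3 meg-4 was -0.44 ± 0.25 (SE, adjusted p = 0.410), against -2.39 for mir-257. It was called there without meg-3 meg-4 replicate 1, at -0.69. In rde-11 its limma change was -0.03 ± 0.16 (adjusted p = 0.932). Like mir-257 it had almost no reads in untreated RNA, at most 2 in a library, and its treated minus untreated difference in N2 was 5.49 ± 0.25 (limma adjusted p = 1.75e-05).

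F39E9.20, beside mir-260 and on its strand, held 30.5 fpm in treated N2, 42.3 fpm in treated meg-3 meg-4 and 24.7 fpm in treated rde-11. Neither limma change passed the test, at 0.47 ± 0.23 (SE, adjusted p = 0.338) and -0.28 ± 0.19 (adjusted p = 0.378). In untreated RNA it held 3.69 fpm in N2 and 1.53 fpm in meg-3 meg-4, a limma change of -0.92 ± 0.39 (adjusted p = 0.373). Its treated minus untreated difference in N2 was 2.74 ± 0.22 (limma adjusted p = 9.64e-05), and -1.75 with the median gene centred. F39E9.21, which overlaps mir-260, held only 3.47 fpm in treated N2. The genes that flank mir-262 held almost no small RNA reads, with scl-20 at 0.239 fpm at most and clec-250 at 0.815 fpm at most in any library.

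Genes whose pattern over the 12 libraries was most like that of a locus came from different classes. They are a description with no test. They were picked as the most correlated over these same libraries, so sharing the changes of a locus follows from the choice. The 2 kinds of RNA form separate clusters, which alone give a high Pearson r wherever a gene differs between them. The r within each kind over 6 libraries therefore stands beside the r over 12. For mir-253 the most similar were the piRNA loci 21ur-4029 (r = 0.98 over 12 libraries, 0.92 in treated RNA and 0.96 in untreated RNA), 21ur-14997 and 21ur-3086. The first pair gave nearly equal values in all libraries. Of the 5964 genes called lower in treated N2 RNA, 4755 were piRNA loci. 21ur-4029 held 8.41 fpm in treated N2 and 13.6 fpm in treated rde-11, and 26.2 and 51.4 fpm in the untreated RNA of these strains.

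For mir-257 the most similar were protein-coding genes: Y73B6BL.288 (r = 0.999, with 0.992 in treated and 0.945 in untreated RNA), nhr-236, which encodes a nuclear hormone receptor, and math-49, which encodes a MATH domain protein. Of the 9612 genes called higher in treated N2 RNA, 8910 were protein-coding, so this class is the common one among such genes. The untreated r of Y73B6BL.288 carries little weight, since mir-257 had only 0 to 4 reads in each untreated library. math-49 held 180.2 fpm in treated N2, 22.3 fpm in treated meg-3 meg-4 and 173 fpm in treated rde-11. Its untreated level was at most 0.751 fpm as a group mean. nhr-236 held 58.8, 11.2 and 53.3 fpm in the same treated groups.

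For mir-260 they were the long noncoding RNA gene linc-17 (r = 0.994, with 0.946 in treated and 0.956 in untreated RNA), K02E2.13 and B0205.12. linc-17 held 178 fpm in treated N2, 217 fpm in treated meg-3 meg-4 and 119 fpm in treated rde-11. Like mir-260 it was lowest in untreated meg-3 meg-4, at 5.48 fpm, with 10.6 fpm in untreated N2 and 10.9 fpm in untreated rde-11. For mir-262 they were Y54G2A.19 (r = 0.995, with 0.949 in treated and 0.892 in untreated RNA), R193.2 and C49F5.11. Y54G2A.19 held 649 fpm in treated N2 and 145 fpm in treated rde-11, but 833 fpm in treated meg-3 meg-4, where mir-262 stood below N2.

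**Figure D4:**
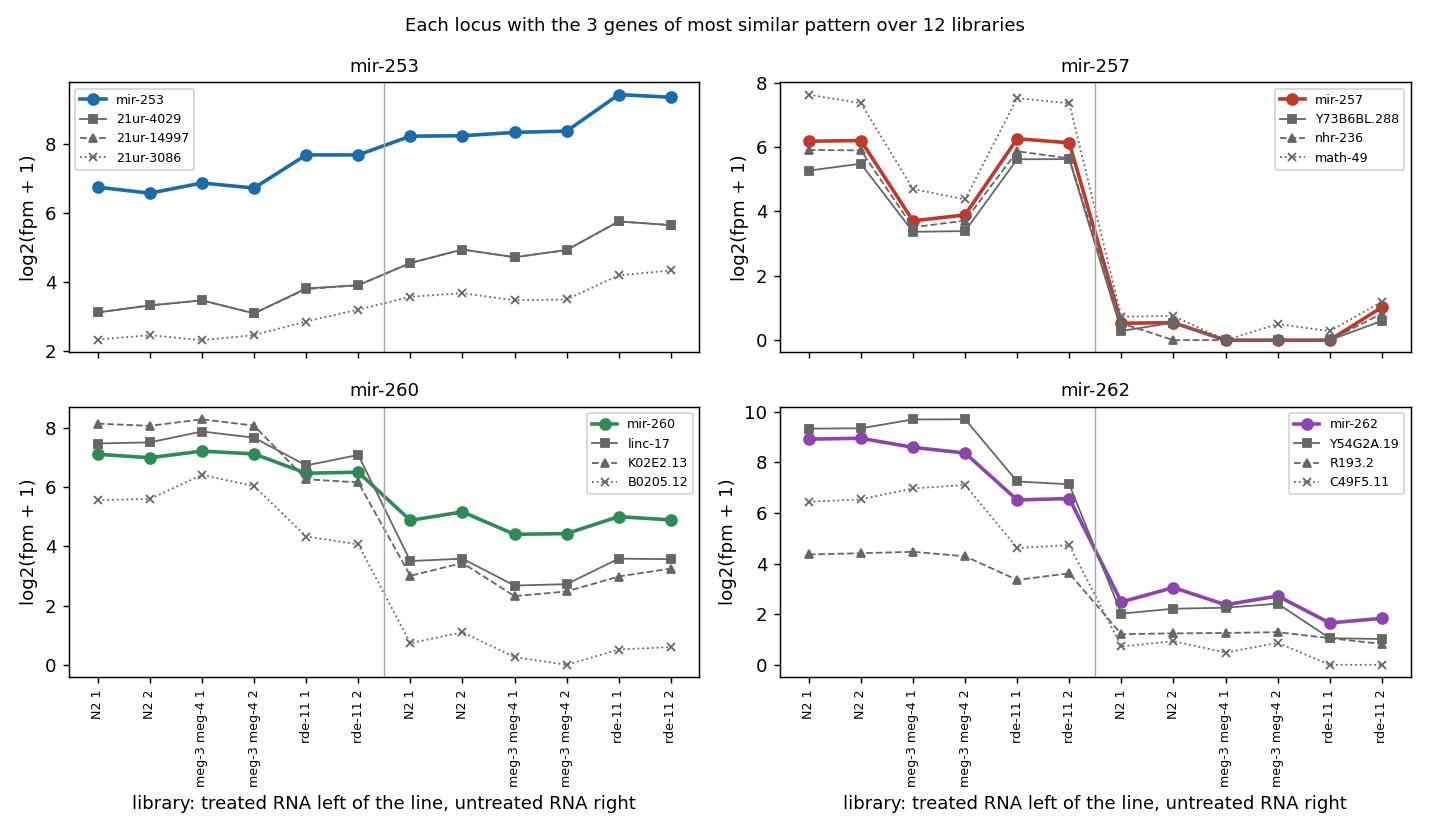
Level on the log2(fpm + 1) scale (vertical axis) of each locus, in colour, and of the 3 genes most correlated with it, in grey, in the 12 libraries (horizontal axis), with treated RNA left and untreated RNA right of the vertical line. The genes like mir-257 are low in both treated meg-3 meg-4 libraries, and those like mir-262 and mir-260 are lower in treated rde-11 than in treated N2. Those like mir-253 are highest in untreated rde-11. The genes were picked by correlation over these libraries, so this likeness follows from the choice.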

How the data were processed

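Small RNA libraries of 12 samples in 6 groups of 2 were compared. The authors deposited 4 tables, each holding 1 mutant and N2 for 1 RNA treatment, in fpm per gene and library (the CPM unit, with no correction for gene length), per the file headers. Per the submitters' processing notes, reads went through cutadapt, Bowtie2 and HTSeq, with DESeq2 and the build ce10 also named. Use of strand, treatment of reads with several matches and read lengths: not given in the sources used here. The authors deposited log2 fold changes and adjusted p-values as well, of which the log2 values of the 4 loci are quoted, and 8 columns of averages were left aside. Each library's fpm values had a constant step, and 100% of values above 0 came out as whole reads within 0.01 reads. Depth was 3884534 to 5278777 reads per library.

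Each comparison (7 in all, 2 against 2 libraries) was fitted on the log2(fpm + 1) scale in limma 3.58.1 (R 4.3.3; trend on), leaving out genes below a mean of 1 fpm. The pseudocount of 1 fpm understates the log2 changes of low genes. p-values were adjusted by Benjamini-Hochberg over all genes tested and called under 0.05. Treated and untreated columns come from different tables, which is possible because fpm is scaled to each library's own total. Counting intervals are 95% intervals of the ratio of reads. Alternatives were another pseudocount (0.5 fpm), other filters, centring on microRNAs or on the median gene, a replicate block, edgeR 4.0.16 and DESeq2 1.42.0 on recovered reads, and each library left out. The edgeR test, usual for counts, is an alternative since the deposited unit is fpm.

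The loci, the lists and the comparisons were chosen with earlier results of these data known. Named genes were the 4 loci, overlapping and nearest genes, genes of equal values, the 3 most correlated genes at a mean of at least 1 fpm, and a list of 20 typical microRNAs, of which 19 were found (mir-58 was not found under that name, and mir-48 is listed as lin-58). meg-3 and meg-4 are listed as gei-12 and C36C9.1. Names, classes and overlaps came from the WBcel235 annotation, which matched 99.3% of identifiers and is not the build of the tables, so no coordinates are given. In meg-3 meg-4 the strain number in the titles differs between the replicates, and the genotype label, which is the same, was followed. The sequences of the loci were not used here.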

Additional observations from a re-analysis of the deposited data

Results flagged for a closer look

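The mean of mir-260 in meg-3 meg-4 lay above that of N2 in the treated RNA and below it in the untreated RNA. Its log2 change was 0.12 ± 0.17 (SE) in the treated RNA, within its error, though both meg-3 meg-4 libraries lay above both N2 libraries. In the untreated RNA it was -0.60 ± 0.23, and both meg-3 meg-4 libraries lay below both N2 libraries. With 2 against 2 libraries a permutation test gives no p below 0.333, so the lack of overlap carries little weight. The share of all genes that meet this rule was not counted, but the pattern was not particular to mir-260. Its neighbour F39E9.20 met the rule, with changes of 0.47 ± 0.23 in treated and -0.92 ± 0.39 in untreated RNA, neither called. Of the genes most correlated with mir-260, linc-17 and B0205.12 met it and K02E2.13 did not. With microRNAs centred both changes of mir-260 were below 0, at -0.13 and -0.74. The signs stayed opposite with the median gene centred (0.26 and -0.31), in edgeR (0.26 and -0.38) and in DESeq2 (0.32 and -0.40). Of these settings only the centring on microRNAs removed the opposite signs. Neither change was called on the fpm scale as deposited, and the difference between them was not tested.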

How the results depend on the processing

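Against N2, 156 of 166 recomputed changes of single loci kept their direction, where called, and their side of the threshold. 3 gained the call and 7 lost it, as named above for each locus. Between treated and untreated RNA 136 of 144 did. mir-260 turned to -2.46 in N2, -2.79 in rde-11 and -1.60 in meg-3 meg-4 with the median gene centred, as did mir-257 in meg-3 meg-4 (-0.55). With microRNAs centred mir-253 turned to 0.0802 in rde-11 and 0.00830 in meg-3 meg-4, and its call in N2 was lost (-0.04). The call of mir-262 in rde-11 was lost with the median gene centred (0.48). The median gene centred also turned F44E7.5 to -0.57 in N2 and -1.01 in meg-3 meg-4, F44E7.13 to -2.66 in N2, F39E9.21 to -2.35, -3.04 and -2.32 and F39E9.20 to -1.75, -2.06 and -0.22 in N2, rde-11 and meg-3 meg-4. Genes at 50 fpm or more, on which this centring rests, had a median difference of 4.86 in N2.

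The number of loci called was 2 with the replicate block and 1 to 2 with a library left out in treated meg-3 meg-4, 2 to 3 with a library left out in treated rde-11, 1 with microRNAs centred in untreated meg-3 meg-4, and 0 to 1 with a library left out in untreated rde-11. Genes called in treated meg-3 meg-4 were 1344, 2589 with the replicate block and 736 to 2756 with a library left out. In treated rde-11 they were 1784, 456 with no filter, 4213 with the block, 864 in DESeq2 and 819 to 2508 with a library left out. In untreated meg-3 meg-4 they were 26, 0 with no filter in limma (1346 at an unadjusted p under 0.05, 22 in edgeR, 18 in DESeq2), 16 with a filter at 5 fpm, 310 with microRNAs centred, 72 with the block and 8 to 348 with a library left out. In untreated rde-11 they were 69, 8 with no filter, 121 with microRNAs centred, 37 with the median gene centred, 118 with the block, 19 in DESeq2 and 0 to 28 with a library left out. The 0 came from limma without N2 replicate 1, where 610 genes had an unadjusted p under 0.05, against 64 called by edgeR on all libraries. Treated against untreated RNA, a filter at 5 fpm left 9831 called genes in N2, 10110 in rde-11 and 8933 in meg-3 meg-4, of 10040, 10290 and 9229 tested, against 15576, 15876 and 14251 in the wider sets. For the other settings the cause was not tested.

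Replicate numbers are shared between groups, but nothing in the labels ties them to a batch. Deviations of same-numbered libraries from their group means correlated at 0.256 to 0.654 over 1766 genes, with 2 pairs per comparison. A fit that leaves out a library assumes that the lone library varies like the other group. The few untreated reads of mir-257 and mir-262 limit their ratios and their r within the untreated RNA. The planned description of hairpin sequences was not run.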
